A study of Mus musculus with 6 samples.

Results

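Neutrophils find a site of infection through receptors for chemoattractants, and 9 of their genes were examined here by name: *Cxcr2*, *Cxcr4*, *Ccr1*, *Ccr2*, *Ccr3*, *Ccr7*, *Ccrl2*, *C5ar1* and *Ptafr*. They are 9 of the 38739 genes in the table, and all 9 were above 0 in at least 1 sample and entered the test with 23049 genes in all. RNA had been sequenced from peritoneal neutrophils of cGAS-/- mice (strain spelled C57B/L6 in the labels, genotype cGAS knockout), 3 samples held in medium for 2 h and 3 treated for 2 h with LPS. LPS is the endotoxin of Gram-negative bacteria, here E. coli 026:B6 at 500 ng/mL by the labels, while the methods of the study give a lower dose. Both groups carry the deletion of cGAS, the cytosolic DNA sensor that makes cGAMP, in every cell of the mouse, and no wild-type sample was compared, so each value below is of LPS against medium in cells without cGAS. The methods describe neutrophils drawn into the peritoneum by thioglycolate, so cells that had already left the blood were treated. The mice were male and 8 weeks old, from the methods. Whether the replicates came from separate mice is not given in the sources used here, and the p-values measure the spread between these samples, which may be technical.

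All 9 genes encode proteins that cross the membrane in a bundle of helices. CXCR2 binds the ELR-type CXC chemokines and drives release from the bone marrow and entry into tissue, whereas CXCR4 binds CXCL12 and retains neutrophils in the marrow. CCR1 binds CCL3 and CCL5 among others, CCR2 binds CCL2 and is best known from monocytes, CCR3 is the eotaxin receptor of eosinophils, and CCR7 answers CCL19 and CCL21 and leads cells to lymph nodes. C5AR1 and PTAFR are the receptors of the complement fragment C5a and of the lipid platelet-activating factor (PAF). CCRL2 is an atypical receptor that presents chemerin and does not couple to G proteins. The other chemokine receptors and C5AR1 signal mainly through Gi, the γ isoform of PI3K and Rac, and are then taken up with the help of arrestins.

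The promoters of the pair of genes that passed the test (*Ccr1* and *Cxcr2*), and of the 2 that are given because a searched motif was found near the start (*Cxcr4* and *Ccrl2*), are shown from the RefSeq table on GRCm38.p6, from 250 bases before to 50 bases after the annotated start, 5′ to 3′ on the strand of the gene. The windows are chr9:123968643-123968942 (minus strand) for *Ccr1*, chr1:74153744-74154043 (plus) for *Cxcr2*, chr1:128592250-128592549 (minus) for *Cxcr4* and chr9:111057469-111057768 (minus, the first of 3 windows) for *Ccrl2*. Capitals mark TATAAA on either strand in *Cxcr4* and the NF-κB consensus in *Ccrl2*.
Ccr1: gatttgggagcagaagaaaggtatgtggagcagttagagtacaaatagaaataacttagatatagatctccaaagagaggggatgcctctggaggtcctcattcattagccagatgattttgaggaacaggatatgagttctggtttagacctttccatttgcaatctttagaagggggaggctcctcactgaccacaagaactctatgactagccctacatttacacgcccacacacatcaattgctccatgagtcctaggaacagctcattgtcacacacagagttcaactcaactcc
Cxcr2: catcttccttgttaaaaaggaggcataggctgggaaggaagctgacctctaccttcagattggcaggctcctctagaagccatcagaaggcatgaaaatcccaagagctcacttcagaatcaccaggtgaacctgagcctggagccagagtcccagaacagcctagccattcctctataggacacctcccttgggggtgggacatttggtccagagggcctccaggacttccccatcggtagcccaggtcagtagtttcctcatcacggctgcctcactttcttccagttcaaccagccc
Cxcr4: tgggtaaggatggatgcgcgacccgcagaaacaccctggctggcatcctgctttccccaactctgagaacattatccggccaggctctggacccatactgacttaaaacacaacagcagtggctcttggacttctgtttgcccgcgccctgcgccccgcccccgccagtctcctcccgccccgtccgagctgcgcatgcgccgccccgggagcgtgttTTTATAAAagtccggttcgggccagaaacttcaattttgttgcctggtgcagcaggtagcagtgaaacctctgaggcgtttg
Ccrl2: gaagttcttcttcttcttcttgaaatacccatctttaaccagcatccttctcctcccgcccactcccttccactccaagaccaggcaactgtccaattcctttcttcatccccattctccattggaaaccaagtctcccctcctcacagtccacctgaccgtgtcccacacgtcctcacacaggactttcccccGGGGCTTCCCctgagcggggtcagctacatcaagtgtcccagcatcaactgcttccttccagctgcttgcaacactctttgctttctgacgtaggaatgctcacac

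Of the 9 genes, 8 had a window in that table (10 windows), and *Ccr7* had none. Each window was searched on both strands for the 10-letter NF-κB consensus, for the PU.1 site GAGGAAGT, for the C/EBP site TTGCNNAA and for TATAAA. The *Cxcr4* promoter held TATAAA 30 bases before the start, and the same letters on the other strand overlapped it. The first *Ccrl2* window held an NF-κB match, GGGGCTTCCC, 56 bases before the start. The *Ccr3* promoter held another on the opposite strand, 179 bases before the start, whose letters on the strand of the gene are GGAAATTCCC. The windows of *Cxcr2*, *Ccr1*, *Ccr2*, *C5ar1* and *Ptafr* held none of the 4 motifs. Of all 32851 windows in the table, 4.505% held the NF-κB consensus, 3.202% the PU.1 site, 10.8% the C/EBP site and 13.62% TATAAA. A match describes letters only, and nothing on binding was measured.

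The deposited values are named normalized counts but were taken here as scaled TPM, an inference from their digits. By this reading a value is a transcript's length-corrected share of its library (TPM). It is the mean over a gene's transcripts, scaled by 1 factor in each sample, and the number of reads behind it is unknown. The share of protein-coding genes in all values was 21.0 to 28.3% untreated and 49.7 to 58.9% after LPS, and the median protein-coding gene with a mean of at least 1 lay 0.37 higher on the log2 scale after LPS (5894 genes). Of 22 neutrophil markers, 21 were above 0. *S100a9* lay between 5233 and 28390 in all 6 samples, and the primary granule gene *Elane* was at 0 in every sample and *Mpo* at no more than 0.138. The summed neutrophil markers ranged from 11040 to 30850 untreated and from 19090 to 58680 after LPS, highest in replicate 2 of each group. *S100a8* and *S100a9* made up most of this sum. Not every marker followed its order, as *Csf3r* was highest in untreated replicate 3 and *Camp* lowest in untreated replicate 2 of the untreated samples. The 12 monocyte and macrophage markers in the table summed to 1096 to 1548 and 853 to 1145. The *Cgas* gene itself was between 0.0286 and 0.307 in all samples, with no wild-type level beside it.

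After 2 h of LPS, the CCL3 and CCL5 receptor *Ccr1* and the receptor of the ELR-type chemokines, *Cxcr2*, fell 6.60-fold and 6.59-fold in mean scaled TPM, and none of the other 7 genes passed the same limits in limma in either direction. The limits were p under 0.01 and a difference of more than 2 in log2(scaled TPM + 1) in limma, fitted on all 23049 genes. Thus 2 of 9 receptors passed downward, where 1.31% of all genes tested did (0.747% of protein-coding genes with a mean of at least 1), and 0 passed upward, where 1.69% did (4.89%). At an unadjusted p under 0.05, limma gave 4 receptors lower (6.66% of all genes and 7.48% of those protein-coding genes) and 2 higher (10.3% and 20.5%). With an adjusted p under 0.05 there was 1 lower, *Ccr1* (0.946% and 0.713%), and 0 higher (0.894% and 2.48%). The 3 LPS values lay below all 3 untreated values for 4 receptors (9.75% and 9.89%) and above them for 3 (13.1% and 24.6%), and the groups overlapped for *Ccr3* and *Ccrl2*. The median difference of the 9 was -0.38, the value of *Ccr3*, beside 0.01 over all genes tested and 0.37 over those protein-coding genes. These are bulk samples, so fewer cells of a type and less RNA per cell cannot be told apart.

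**Figure D1:**
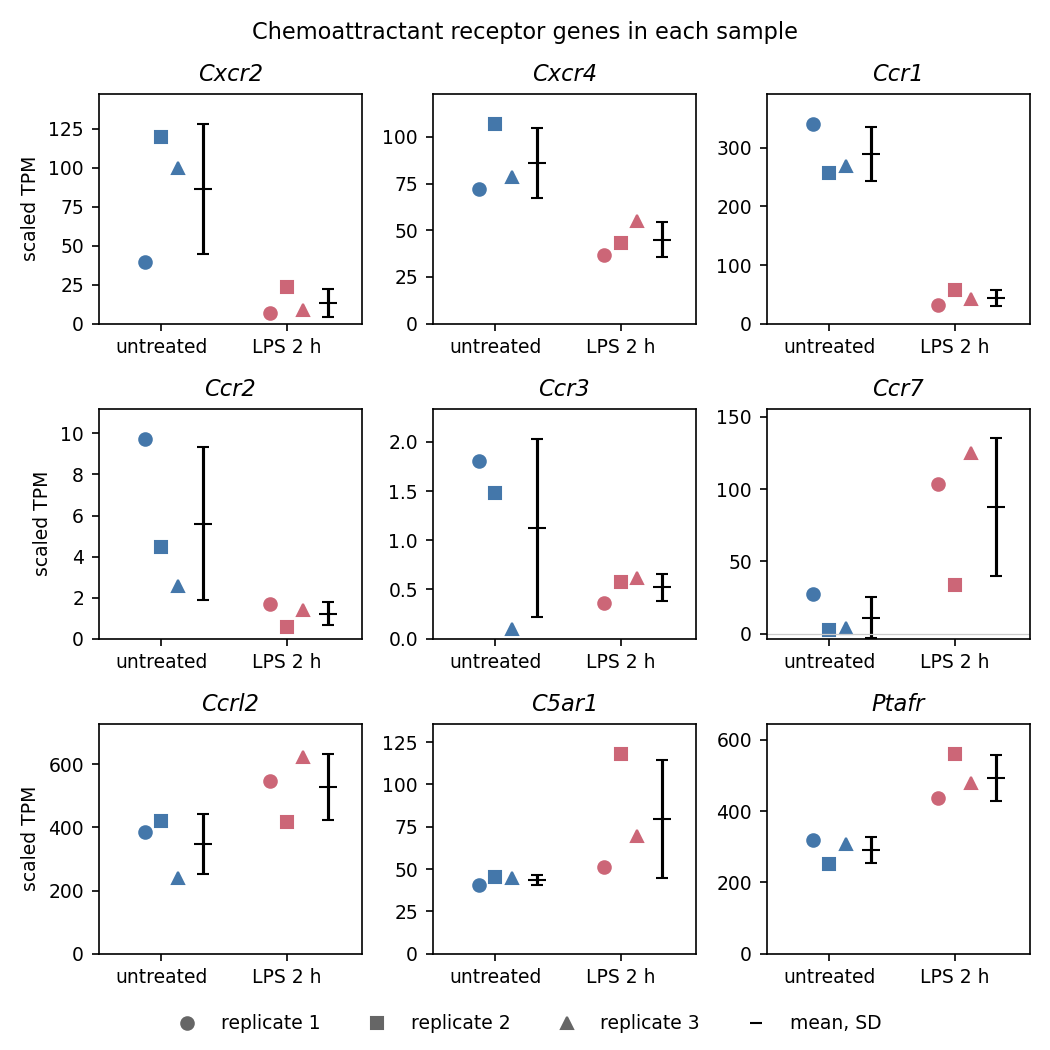
Scaled TPM of each receptor gene (linear axes from 0, except that of *Ccr7*, which extends below 0 for its error bar) in 3 untreated (blue) and 3 LPS-treated (red) samples, with the group mean and SD in black. For *Ccr1* the LPS samples reach up to 57.9 and the untreated samples down to 257.6, whereas for *Ccrl2* the groups meet at 417 and 419.

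The CXC receptor *Cxcr2* (chromosome 1, 74193150 to 74200405, plus strand, GRCm39, GENCODE M39; 1 annotated transcript) had 39.4, 119.9 and 100.2 scaled TPM in untreated samples 1 to 3 and 7.10, 23.6 and 8.69 after LPS. Every LPS value was below every untreated one, although the untreated samples themselves spanned 3.04-fold, with replicate 1 the lowest of its group in both conditions. The mean was 86.5 ± 42.0 (SD, n = 3) untreated and 13.1 ± 9.10 after LPS, 6.59 times lower, and the difference was -2.67 in log2(scaled TPM + 1) (SE 0.62, 95% interval -4.17 to -1.16, adjusted p = 0.094, limma). It passed the limits in 10 of 15 alternative settings, and without untreated replicate 2 or 3 or LPS replicate 1 or 3 it missed the limit on p, with adjusted p-values of 0.16 to 0.30, as it did with voom. A stretch of 220 bases, 7.22% of the 3046-base transcript, was at least 95% identical over 150 bases or more to 173 other genes, so reads from there could be shared.

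*Cxcr4* (chromosome 1, 128515936 to 128520044, minus strand; 2 transcripts) was at a similar untreated level, with 72.0, 107.1 and 78.5, and had 36.5, 43.3 and 55.1 after LPS. The groups did not overlap, and the nearest values, 72.0 and 55.1, were 1.31-fold apart. The mean of 85.9 ± 18.7 was 1.91 times that after LPS, 45.0 ± 9.43, and the difference of -0.92 (SE 0.31, 95% interval -1.68 to -0.16, adjusted p = 0.21, limma) did not pass. The ratio of the marrow-retention receptor to the marrow-release receptor within a sample, which does not depend on how samples are scaled, was 1.83, 0.894 and 0.783 untreated and 5.14, 1.83 and 6.34 after LPS. The ratio was higher in LPS replicates 1 and 3, whereas LPS replicate 2 and untreated replicate 1 were level.

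The CC receptor *Ccr1* (chromosome 9, 123762161 to 123768734, minus strand; 1 transcript) showed the clearest separation of the 9, with 341.3, 257.6 and 268.3 untreated and 32.2, 57.9 and 41.4 after LPS. The lowest untreated value was 4.45 times the highest LPS value, and neither group spanned more than 1.80-fold. The mean fell from 289 ± 45.6 to 43.8 ± 13.0, 6.60 times lower, with a difference of -2.72 (SE 0.33, 95% interval -3.52 to -1.93, adjusted p = 0.0223, limma). It passed in all 15 alternative settings, between -3.22 and -2.11, and its adjusted p was under 0.05 in 10 of them.

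*Ccr2* (chromosome 9, 123901982 to 123913594, plus strand; 4 transcripts), the monocyte receptor for CCL2, was low, with 9.75, 4.48 and 2.57 untreated and 1.68, 0.581 and 1.40 after LPS. The groups did not overlap, but untreated replicate 1 was 3.80 times replicate 3. The difference of -1.46 (SE 0.50, 95% interval -2.67 to -0.24, adjusted p = 0.21, limma) did not pass. Beside it, the summed monocyte and macrophage markers overlapped between the groups. At an unadjusted p under 0.05 in limma, 3 of 12 were higher after LPS (10.3% of all genes) and 0 lower (6.66%). By ranges, 3 markers lay above all untreated values, *Cd68*, *C1qb* and *Itgax* (13.1% of all genes, 24.6% of protein-coding genes with a mean of at least 1). Of the 12, only *C1qb* passed the limits, upward (2.615, adjusted p = 0.064, limma), where 1.69% of all genes did. Another 3 lay below all untreated values, like *Ccr2* (9.75% and 9.89%). These were *Lyz2* (871.8, 1367 and 922.9, then 642.2, 694.7 and 532.3), *Mrc1* and *Cx3cr1*. *Lyz2* and *Cd68* made up most of the sum. The part of such cells in the *Ccr2* values was not tested.

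The eotaxin receptor *Ccr3* (chromosome 9, 123822009 to 123831726, plus strand; 1 transcript) was the lowest of the 9, with 1.81, 1.48 and 0.0963 untreated and 0.359, 0.580 and 0.621 after LPS. The LPS values lay inside the untreated range, which spanned 18.8-fold. The difference was -0.38 (SE 0.43, 95% interval -1.43 to 0.68, adjusted p = 0.64, limma), and voom gave 0.20 in the other direction. Eosinophil markers were likewise near 0: of 6 in the table, *Epx* and *Prg3* were at 0 in all samples, and the sum was 2.96 to 7.17 untreated and 1.66 to 6.48 after LPS.

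The lymph node homing receptor *Ccr7* (chromosome 11, 99035022 to 99045911, minus strand; 1 transcript) had the largest upward difference of the 9 and also the largest SE. It had 27.1, 2.24 and 3.93 untreated and 103.9, 33.5 and 125.2 after LPS, so that the highest untreated and the lowest LPS value were 1.24-fold apart. The mean was 11.1 ± 13.9 untreated and 87.6 ± 48.0 after LPS, 7.88 times higher, and the difference of 3.33 (SE 0.94, 95% interval 1.04 to 5.62, adjusted p = 0.14, limma) missed the limit on p. It passed in 5 of 15 alternatives, 1 of them without untreated replicate 1, where the difference was 4.27. An annotated long non-coding gene on the opposite strand, *Gm57398*, overlaps *Ccr7* and was not among the genes analysed here.

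Dendritic, B and T cells also carry *Ccr7*, and their markers were present. The 10 dendritic cell markers summed to 26.5, 2.64 and 22.6 untreated and 58.7, 26.4 and 93.4 after LPS, with replicate 2 lowest in both groups, as it was for *Ccr7*. In 5 of the 6 samples most of that sum was the chemokine *Ccl22* (20.3, 0.151 and 15.3, then 50.9, 23.0 and 79.5), while the dendritic lineage genes *Flt3* and *Zbtb46* were at most 1.83 and 1.50. The 6 B cell markers summed to 143 to 551 untreated and 67.8 to 239 after LPS, and the 8 T cell markers to 41.7 to 129 and 12.0 to 44.7. Both sums were again lowest in replicate 2 of each group and, unlike *Ccr7*, not higher after LPS. *Cd79a* and *Cd79b* made up most of the B cell sum, and *Trbc2* was the largest part of the T cell sum. Among untreated samples, *Cd79b* (61.3, 110.6 and 174.9) and *Cd3d* (1.20, 2.98 and 4.54) were instead lowest in replicate 1, and *Ebf1* and *Cd3e* in replicate 3. None of these 3 lists had a marker past the limits in limma. At an unadjusted p under 0.05, only 1 dendritic marker was lower (6.66% of all genes) and 0 higher (10.3%). By ranges, 3 dendritic markers lay above all untreated values after LPS, like *Ccr7*, namely *Ccl22*, *Fscn1* (0.729, 0.357 and 0.149, then 2.81, 0.799 and 8.81) and the low *Clec9a*. Another 1 lay below them. Over all genes 13.1% lay above and 9.75% below, and over protein-coding genes with a mean of at least 1, 24.6% and 9.89%. Their part in the *Ccr7* values was not tested.

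**Figure D2:**
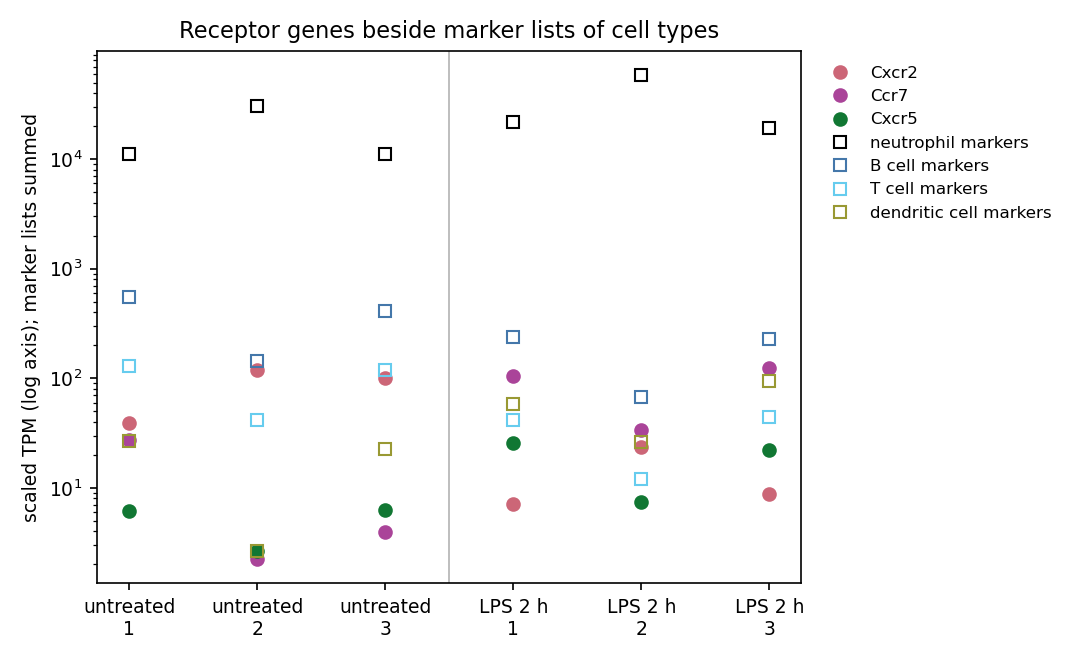
Scaled TPM on a log axis of *Cxcr2*, *Ccr7* and the B cell chemokine receptor *Cxcr5* (filled circles) and of summed marker lists (open squares) in each of the 6 samples. In replicate 2 of either group the B, T and dendritic cell sums and *Ccr7* are at their lowest and the neutrophil sum at its highest. The neutrophil sum is mostly *S100a8* and *S100a9* and the B cell sum mostly *Cd79a* and *Cd79b*. *Trbc2* is the largest part of the T cell sum, and single B and T cell markers do not all follow their sums.

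The genes for *Ccr1*, *Ccr3* and *Ccr2* lie in 1 cluster on chromosome 9, 151.4 kb from the start of *Ccr1* to the end of *Ccr2* (GRCm39). *Ccrl2* is also on chromosome 9 but lies apart from them, and its difference was above 0 while those of the 3 clustered genes were below 0, except that *Ccr3* turned with voom.

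The atypical receptor *Ccrl2* (chromosome 9, 110883554 to 110886591, minus strand; 5 transcripts) was the most abundant of the 9 in both groups, with 385.2, 419.2 and 238.3 untreated and 546.7, 416.9 and 624.4 after LPS. LPS replicate 2 lay just under untreated replicate 2, so the groups overlapped. The difference was 0.63 (SE 0.34, 95% interval -0.21 to 1.47, adjusted p = 0.41, limma).

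The C5a receptor *C5ar1* (chromosome 7, 15980668 to 15993465, minus strand; 3 transcripts) was even among untreated samples, 40.3, 45.4 and 44.6, and uneven after LPS, 50.9, 118.2 and 69.4. Every LPS value was above every untreated one, the nearest by 1.12-fold. The difference was 0.77 (SE 0.38, 95% interval -0.14 to 1.69, adjusted p = 0.36, limma). LPS replicate 2, the highest, also had the highest summed neutrophil markers, a sum made up mostly of *S100a8* and *S100a9*. The part of neutrophil content in this value was not tested.

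The PAF receptor *Ptafr* (chromosome 4, 132291363 to 132309994, plus strand; 1 transcript) was even in both groups, with 318.0, 250.4 and 306.6 untreated and 436.7, 561.3 and 479.9 after LPS. The groups did not overlap, and the mean of 292 ± 36.2 became 493 ± 63.3, 1.69 times higher. The difference of 0.75 (SE 0.27, 95% interval 0.10 to 1.41, adjusted p = 0.23, limma) did not pass. It was 0.25 when the samples were scaled to their protein-coding sum, and *C5ar1* and *Ccrl2* were then at 0.28 and 0.13, so the size of these 3 differences moved with the scaling. Of the *Ptafr* transcript, 166 of 3652 bases were near-identical to 2 other genes.

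**Figure D3:**
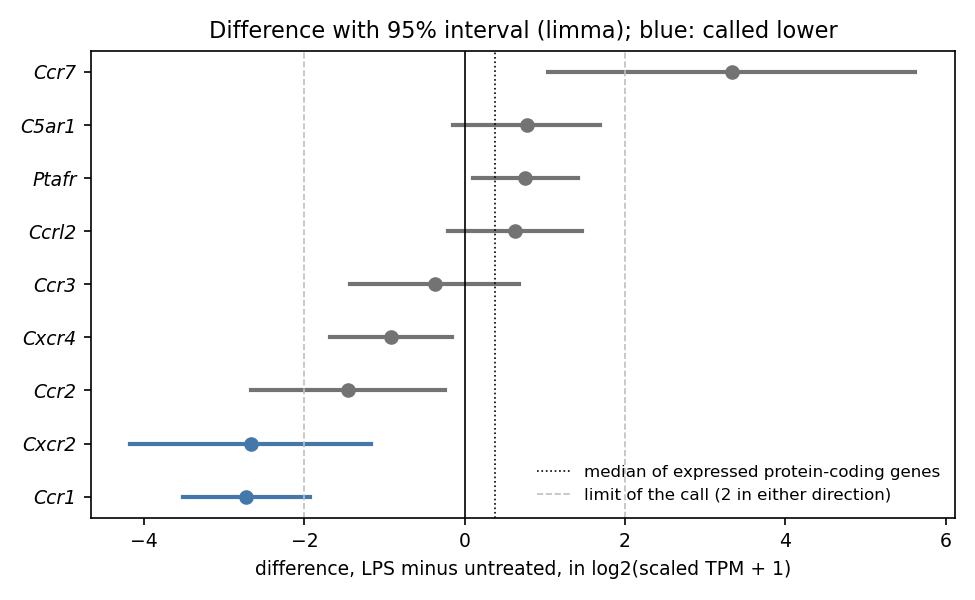
Difference between LPS and untreated samples in log2(scaled TPM + 1) for each receptor, with its 95% interval from limma (3 samples a group). The intervals of *Ccr1*, *Cxcr2*, *Ccr2* and *Cxcr4* lie below 0, those of *Ccr7* and *Ptafr* above it, and the dotted line at 0.37 is the median of expressed protein-coding genes.

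**Figure D4:**
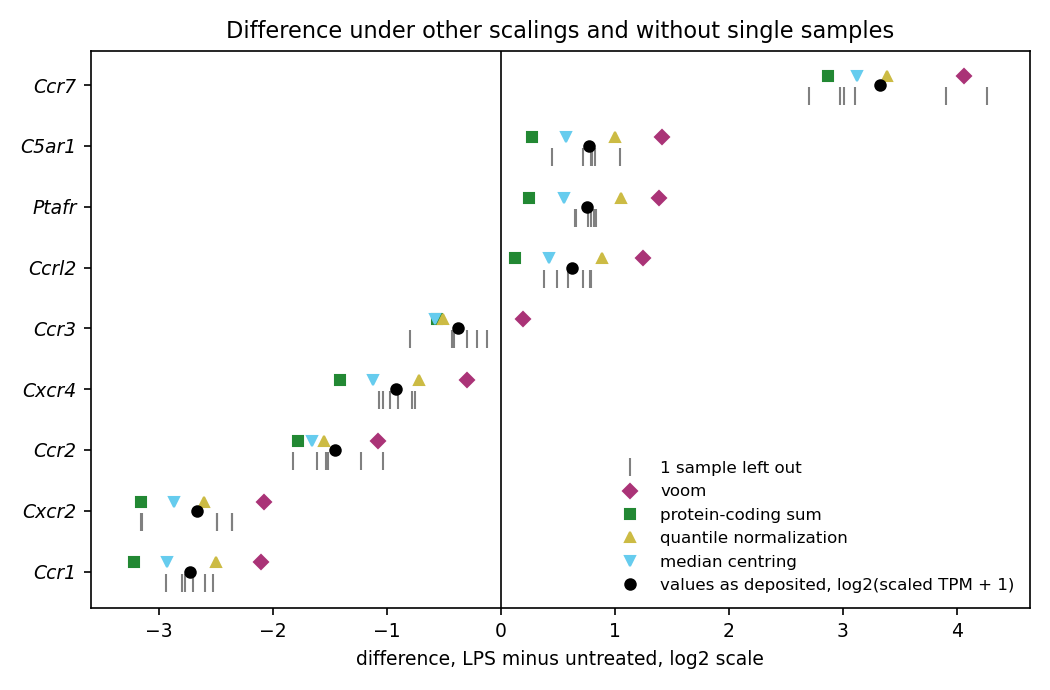
The same difference under the values as deposited (black), 4 other scalings (coloured) and with 1 sample left out (grey ticks), all on a log2 scale. *Ccr1* stays between -3.22 and -2.11, and only *Ccr3* crosses 0.

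In order of scaled TPM, which is per transcript length, the untreated cells had *Ccrl2* (348), *Ptafr* (292) and *Ccr1* (289) first, whose ranges overlapped from each to the next. *Cxcr2* (86.5) and *Cxcr4* (85.9) followed and overlapped each other, *C5ar1* (43.4) stood apart from both neighbours, and *Ccr7* (11.1) and *Ccr2* (5.60) overlapped above *Ccr3* (1.13). After LPS, *Ccrl2* (529) and *Ptafr* (493) overlapped at the top, and *Ccr7* (87.6), *C5ar1* (79.5), *Cxcr4* (45.0) and *Ccr1* (43.8) overlapped from each to the next. *Cxcr2* (13.1) stood apart, and *Ccr2* (1.22) and *Ccr3* (0.520) overlapped at the bottom. *Ccr1* thus went from rank 3 to rank 6 and *Ccr7* from rank 7 to rank 3. If a value is an average over transcripts, as taken here, genes with several are listed below their total. Multiplied by the number of GENCODE transcripts, *Ccrl2* stood apart at the top of both groups, *Cxcr4* stood apart above *Cxcr2* in the untreated cells, and *Ccr7* was at rank 5 after LPS. For *Ccrl2* the number of transcripts behind the deposited value is uncertain, since untreated replicate 3 comes back to 7 digits when multiplied by 3 and not by 5. The numbers used for *Cxcr4* (2) and *Ccr2* (4) were not recovered in this way either.

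The 9 values of a sample summed to 1235, 1208 and 1043 scaled TPM untreated and 1216, 1256 and 1406 after LPS, so the sum ranges overlapped while its make-up differed. *Ccr1* made up 27.6, 21.3 and 25.7% of the sum untreated and 2.65, 4.61 and 2.94% after LPS. *Ptafr* went the other way, with 25.8, 20.7 and 29.4% against 35.9, 44.7 and 34.1%. Shares and ratios within a sample do not depend on the scaling of that sample, but they do depend on the averaging over transcripts. Multiplied by GENCODE transcripts, *Ccr1* made up 11.5, 8.32 and 12.4% untreated and 0.908 to 1.80% after LPS, still separate, whereas *Ptafr* had 10.8, 8.09 and 14.1% against 12.3, 17.5 and 11.7%, which overlapped. A ratio of the same pair of genes keeps its fold between samples either way. *Ptafr* was 0.932, 0.972 and 1.14 times *Ccr1* untreated and 13.6, 9.70 and 11.6 times after LPS, and *C5ar1* was 1.02, 0.378 and 0.445 times *Cxcr2* untreated and 7.17, 5.01 and 7.98 times after LPS. Each of these pairs of ranges was separate. That follows from the single genes, since *Ptafr* and *C5ar1* lay above and *Ccr1* and *Cxcr2* below all untreated values after LPS. The pairs were picked after the values were seen, so the ratios describe the size of the gap only.

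**Figure D5:**
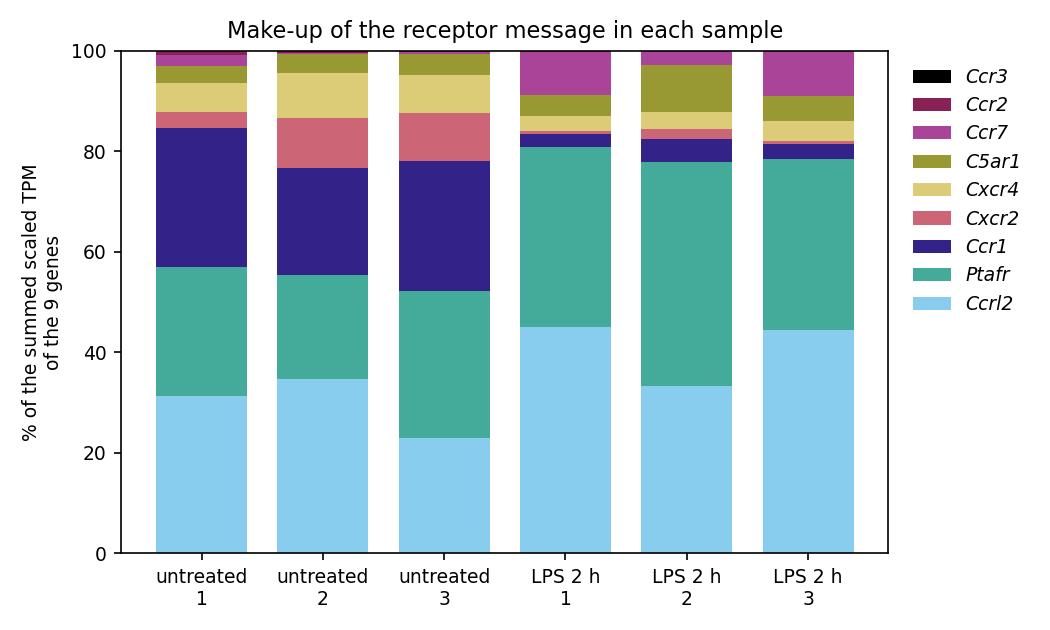
Share of each receptor gene in the summed scaled TPM of the 9 genes, as stacked percentages, 1 bar per sample. *Ccr1* takes 21.3 to 27.6% of the untreated bars and 2.65 to 4.61% of the LPS bars, and *Ptafr* and *Ccrl2* fill most of the latter. Multiplied by GENCODE transcripts, which the bars are not, *Ccr1* would take 8.32 to 12.4% and 0.908 to 1.80%, and *Ccrl2* 54.9 to 67.7% and 65.0 to 77.1%.

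The genes most like *Cxcr2* across the 6 samples, by Pearson correlation of log2 values among 2795 candidates, included *Tut7* (r = 0.996) and *Twf2* (r = 0.990). Those most like *Ccr1* were *Zfp935* (r = 0.997), *Vcpip1* (r = 0.994) and *Phyh* (r = 0.993). The 6 points fall into the 2 groups and share their libraries, so these values describe likeness only.

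Of 31 other chemoattractant receptors on the list, 22 were in the table and above 0 in some sample, and 9, with the formyl peptide and leukotriene B4 receptors among them, were not analysed here. In limma 0 of 22 passed the limits in either direction, where 1.69% of all genes tested passed upward and 1.31% downward. At an unadjusted p under 0.05, 2 were higher (10.3% of all genes) and 2 lower (6.66%), near those shares. The median difference was -0.08. *Ccr9*, the gut-homing receptor of lymphocytes, had 5.52, 1.21 and 2.93 untreated and 0.269, 0.166 and 0.234 after LPS (-1.65, adjusted p = 0.14). *Cxcr5*, the follicle-homing receptor of B cells, had 6.14, 2.64 and 6.26 untreated and 25.6, 7.35 and 22.3 after LPS (1.59, adjusted p = 0.23). Like the sum of the B cell markers, though not each of them, it was lowest in replicate 2 of each group. *Ccr10* was at 0 in all untreated samples and had 0.930, 0.425 and 0.818 after LPS. The second receptor of the CXCR2 ligands, *Cxcr1*, had 19.5, 4.19 and 0.152 untreated and 2.75, 3.01 and 3.16 after LPS, and its untreated range enclosed that of LPS. The other 8 receptors with a mean of at least 1 (*Cxcr6*, *Xcr1*, *Ackr2*, *C3ar1*, *Cmklr1*, *Gpr35*, *S1pr1* and *S1pr4*) had differences from -1.49 to 1.30, none at a p under 0.05.

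Of 34 genes that carry the signal of these receptors, 26 were in the table, and limma called 1 higher (1.69% of all genes) and 0 lower (1.31%). At an unadjusted p under 0.05, 5 were higher and 2 lower. The shares over all genes were 10.3% and 6.66%, and over protein-coding genes with a mean of at least 1, 20.5% and 7.48%. The median difference was 0.32, beside 0.37 for those protein-coding genes. The α subunits of the Gi protein had differences of opposite sign. *Gnai2*, the main one of leukocytes, had 147.5, 275.0 and 172.4 untreated and 34.1, 91.9 and 39.1 after LPS (-1.92, SE 0.48, adjusted p = 0.11). *Gnai3* had 59.5, 90.9 and 114.7 untreated and 171.7, 299.2 and 174.6 after LPS (1.27, SE 0.39, adjusted p = 0.17). Neither passed the limits and neither pair of groups overlapped. The regulatory subunit of PI3Kγ, *Pik3r5*, had 5.61, 10.3 and 8.90 untreated and 17.4, 53.7 and 29.6 after LPS (1.80, adjusted p = 0.13), and the Rac activator *Dock2* had 6.52, 3.79 and 3.44 untreated and 11.0, 12.2 and 12.5 after LPS (1.25, adjusted p = 0.12). *Gng5*, a γ subunit, was at -0.95 (adjusted p = 0.26), and the arrestin *Arrb1* and the PIP3-bound Rac activator *Prex1* were at -0.61 and -0.60 with overlapping groups.

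Of the 23 ligand genes on the list, 21 were above 0, and limma called 4 higher (1.69% of all genes) and 0 lower (1.31%). At an unadjusted p under 0.05, 6 were higher (10.3% of all genes) and 1 lower (6.66%). The median difference was 0.60. The 4 called higher are ligands of the receptors above: *Cxcl1*, *Cxcl2* and *Cxcl3* bind CXCR2, and *Ccl7* binds CCR1, CCR2 and CCR3. *Cxcl2* had 135.2, 204.3 and 77.7 untreated and 2381, 1392 and 1336 after LPS (difference 3.66, SE 0.46, adjusted p = 0.0256). *Cxcl3* had 8.90, 4.72 and 13.4 untreated and 745.5, 252.6 and 458.3 after LPS (5.57, adjusted p = 0.0141), and *Cxcl1* had 1.33, 2.57 and 2.76 untreated and 161.0, 33.2 and 148.2 after LPS (4.90, adjusted p = 0.0325). *Ccl7* was at 0 in untreated samples 1 and 2 and at 0.904 in 3, and at 6.81, 5.66 and 12.2 after LPS (2.83, adjusted p = 0.0427, a size that depends on the pseudocount). These 3 ligands of CXCR2 were thus higher in the same samples in which *Cxcr2* was lower. Of its other ligands on the list, *Cxcl5* was at 0 to 0.191 untreated and 1.00 to 2.91 after LPS (adjusted p = 0.11), and *Ppbp* overlapped (adjusted p = 0.33). The CCR1 ligand *Ccl3* was high in both groups, 2453 to 6106 untreated and 5227 to 6075 after LPS (0.60, adjusted p = 0.52), and of the ligands that bind CCR1, *Ccl6* had 282.0, 176.9 and 261.7 untreated and 100.5, 56.1 and 142.8 after LPS (-1.33, adjusted p = 0.19). *Ccl5* (-0.57) and the CCR3 ligand *Ccl24* (43.0, 2.85 and 4.42 untreated, 15.8, 4.81 and 8.45 after LPS) overlapped between the groups, and *Ccl19* and *Ccl21a*, the ligands of CCR7, were at 0 in all 6 samples.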

How the data were processed

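Members, lists and tests were chosen with earlier results of these data known. The authors deposited 1 table, which the labels and methods tie to fastp, STAR on GRCm39 and kallisto, with limma and voom named for the comparison. The build mm10 also appears in the notes, and versions of fastp, STAR and kallisto are not given in the sources used here. The deposited values are named normalized counts. They were taken as TPM per gene, averaged over transcripts by the authors and divided by 1 factor per sample, an inference from their digits. Of genes with 1 GENCODE M39 transcript, 97.83% have at most 6 digits in untreated replicate 3, and of those with 3, 54.22%. Counts cannot be recovered, depth is unknown, and only the spread between samples gives precision.

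GENCODE M39 entries were found by gene name for 35599 genes and by identifier for 983, and the 15690 at 0 in all samples were left out. The remaining 23049 were tested with limma's two-sided moderated test (version 3.58.1, R 4.3.3, eBayes with trend) on log2(value + 1), LPS against untreated, all 6 samples, no covariate. A gene was called at p under 0.01 and a log2 difference over 2, with Benjamini-Hochberg adjusted p-values over all genes. A fold on this scale understates the change of low genes, and folds in the text are ratios of group means. The script was tested on simulated data.

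Named were the 9 receptors, other receptors with a mean of at least 1, the 4 signalling and 4 ligand genes with the lowest p in each direction, and the 3 protein-coding genes (mean of at least 5) by Pearson r most like *Cxcr2* and *Ccr1*. *Ccr10*, *Ccl3*, *Cxcl5*, *Ppbp*, *Ccl19*, *Ccl21a*, *Cgas* and single markers were named after their values were seen, as were shares and ratios. Some genes that the rule picks are not reported here. Near-identity was searched with blastn 2.17.0 (95% over 150 bases). Alternatives were pseudocounts of 0.1 and 5, genes with a mean of at least 1, quantile normalization, median centring, scaling to the protein-coding sum, no trend, voom, a replicate block and leaving out each sample. Python 3.11.15, pandas 2.3.3 and matplotlib 3.10.9 were used.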

Additional observations from a re-analysis of the deposited data

How the results depend on the processing

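Over 15 alternatives the differences of 8 receptors kept their direction, and *Ccr3* turned with voom (0.20). *Ccr7* passed upward, giving 1 receptor instead of 0, with genes of a mean of at least 1, with median centring, with voom, with the replicate block and without untreated replicate 1 (range 0 to 1 with a sample left out). With voom, and with an adjusted p under 0.05 alone, 1 receptor, *Ccr1*, was lower instead of 2 (range 1 to 2 with a sample left out; 1 without untreated replicate 2 or 3 or LPS replicate 1 or 3). The median of expressed protein-coding genes moved from 0.37 to 1.10 with voom and to 0.01 when scaled to the protein-coding sum, and calls over all genes from 389 higher and 301 lower to 1552 and 177 and to 220 and 522. A pseudocount of 0.1 gave 856 higher and 493 lower, and a pseudocount of 5 gave 129 and 168. Voom was run on the deposited values and not on counts, and it divides each sample by its sum. These sums were 603599 to 713384 untreated and 404675 to 465904 after LPS. No cause of these changes was tested.

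Of other receptors, 1 was called higher with a pseudocount of 0.1 (*Ccr10*) and 2 with voom (*Cxcr5* and *Gpr35*), and 2 lower with that pseudocount (*Ccr9* among them) and 1 when scaled to the protein-coding sum, instead of 0 each, with 0 to 1 and 0 to 2 when a sample was left out. Of signalling genes, 2 were called higher with voom (*Pik3r5* among them) instead of 1, and 1 lower (*Gnai2*) with median centring and with the protein-coding sum, with 1 to 2 and 0 to 1 when a sample was left out. The small differences of *Prex1*, *Ccl5*, *Ccl24* and *Cxcr1* turned with voom (0.086, 0.048, 0.64 and 0.44), those of *Ccl24* and *Cxcr1* with a pseudocount of 0.1 (0.069 and 0.15), and that of *Cmklr1* with median centring (-0.016) and the protein-coding sum (-0.14). With a sample left out, *Prex1* ranged from -1.68 to 0.054, *Ccl5* from -1.13 to 0.0037, *Ccl24* from -0.67 to 1.09, *Cxcr1* from -1.38 to 0.70 and *Cmklr1* from -0.43 to 0.64.

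Replicate numbers are shared between the groups, and same-numbered samples deviated together by low correlations of 0.10, 0.22 and 0.09 (9403 genes). Every sample nevertheless correlated best with its own number. Whether the samples were prepared as pairs is not given in the sources used here, and the main test did not pair them. With the replicate block, 387 genes were called higher and 303 lower, adjusted p-values under 0.05 went from 206 higher and 218 lower to 1 and 15, and *Ccr1* had an adjusted p of 0.092 (limma). Without LPS replicate 1, 1 gene was higher and 7 lower at that adjusted p, and without LPS replicate 3 likewise 1 and 7.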
